A study of Mus musculus with 9 samples.

Results

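The miR-30 family was described here across all forms in which it was listed in small RNA of extracellular vesicles (EVs) from mouse bronchoalveolar lavage fluid (BALF). Its members were all table entries that belong to the hairpins mir-30a, mir-30b, mir-30c-1, mir-30c-2, mir-30d and mir-30e, with case and the prefix mmu- ignored. They numbered 67 of the 1308 entries, of which 43 were of the 5p arm and 24 of the 3p arm. Of the 67 entries, 12 were mature forms and 55 were isomiRs, forms of the same arm whose start was shifted along the hairpin. The hairpins held between 8 entries (mir-30c-1) and 14 entries (mir-30a and mir-30e).

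Female C57BL/6J mice, 8 to 10 weeks old, breathed filtered air (FA), 1 ppm ozone (O3) or 2 ppm O3 for 3 h in a chamber, and the airways were lavaged the next day. Each exposure was read in 3 pools of BALF, so that n = 3 pools per group and 9 in all. The FA pools held fluid of 4 mice and the O3 pools fluid of 3 mice, so that pool size and O3 cannot be told apart. No genotype other than the strain and no agent other than O3 was given for any group, and the labels say nothing of separate exposure days, so that p-values measure the spread between these pools. The paper lists its exposures as FA-1, FA-2, 1 ppm O3 and 2 ppm O3, without a further run at either O3 concentration. Exposure run and O3 concentration thus cannot be told apart in these pools. Values were RPMMM, reads per 1000000 reads mapped to miRNAs, which count whole miRNAs and need no correction for length.

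Between 281538 and 860984 miRNA reads per pool were estimated from the lowest values, and the 2 ppm pools were the shallowest, with 281538 to 300917 reads. No entry was listed below about 10 reads, so that an entry listed at 0 may hold a few reads. The hairpin miR-2137 held 0.0784% to 0.641% of the reads in FA and 18.7% to 20.3% at 2 ppm. A further 4 hairpins, miR-5102, miR-5105, miR-5109 as well as miR-5115, together held 0.279% to 0.405% in FA and 22.9% to 27.3% at 2 ppm. All other entries therefore shared 99.1% to 99.6% of the reads in FA, 89.1% to 94.5% at 1 ppm and 52.8% to 58.4% at 2 ppm. Each value at 2 ppm is relative to that total, and results at 2 ppm are given below on other scales as well. Less miRNA per vesicle and fewer vesicles of a cell type cannot be told apart in these pools.

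A hairpin precursor is cut into a short duplex whose 5p or 3p strand is loaded into an Argonaute protein, while the other strand is usually degraded. The loaded miRNA finds its mRNA targets mainly through its seed, the bases near its 5′ end. The miR-30 family is abundant in epithelial cells, including those of the lung, and is known for repressing genes of the change from epithelial to mesenchymal cells, such as Snai1, and of autophagy, such as Becn1.

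The mature 5p sequences are shown because they carry 1 seed in common, and the capitals mark that seed, bases 2 to 8 counted from the 5′ end. RefSeq (GRCm38.p6) sequences were matched for 4 of the 6 hairpins.
miR-30a-5p: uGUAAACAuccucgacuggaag
miR-30c-5p: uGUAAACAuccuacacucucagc
miR-30e-5p: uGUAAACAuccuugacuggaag
With positions counted from 1 at the 5′ end of the miRNA named before the other, miR-30a-5p and miR-30e-5p differed by C13U alone. The hairpins mir-30c-1 and mir-30c-2 give the same miR-30c-5p, and their mature entries were listed with identical values in all 9 pools. By pool, 32.6% to 58.8% of the low values of entries with several genomic copies lay on steps of whole reads, against 75.4% to 91.7% for entries with 1 copy. How reads of such copies were shared out was not given in the sources used here, so that miR-30c-5p is given per copy and was counted once in sums. Entries of a copy could stand for fractions of a read, such as an estimated 323.5 reads of miR-30c-1-5p shifted by +1 in FA pool 1. Sums, shares and ratios that count 1 copy may therefore leave out part of the miR-30c-5p reads.

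The 3p sequences fall under a pair of other seeds, and they are shown because the arms are compared below.
miR-30a-3p: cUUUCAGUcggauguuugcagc
miR-30e-3p: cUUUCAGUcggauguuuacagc
miR-30c-1-3p: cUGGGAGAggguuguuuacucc
miR-30c-2-3p: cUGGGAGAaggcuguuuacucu
miR-30a-3p and miR-30e-3p differed by G18A. miR-30c-1-3p and miR-30c-2-3p differed by G9A, U12C and C22U, all outside the seed, so that their mature sequences are distinct where those of the 5p arm are not. Their values could still stand for fractions of a read. Examples are an estimated 22.5 reads of miR-30c-1-3p in FA pool 2 and 580.7 of miR-30c-2-3p in FA pool 1.

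In mm9, mir-30a lies at chr1:23279108-23279178 and mir-30c-2 at chr1:23298540-23298623, both on the plus strand, 19361 bases apart and within no other annotated gene. mir-30e lies at chr4:120445211-120445302 and mir-30c-1 at chr4:120442139-120442227, both on the minus strand and 2983 bases apart. These last hairpins are within an intron of Nfyc, which encodes a subunit of the transcription factor NF-Y, and on the strand of that gene.

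The most abundant member was miR-30d-5p, with 52341, 44303 and 37794 RPMMM in the FA pools, 51449, 53636 and 53102 at 1 ppm, and 26787, 26322 and 26549 at 2 ppm. In FA it had rank 2 of all 1308 entries (44813 ± 7287 RPMMM, SD), between miR-21-5p with 102457 ± 6067 and miR-26a-2-5p with 37208 ± 1093. Its 2 ppm pools lay below every other pool, while the 1 ppm pools overlapped with FA.

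miR-30a-5p stood next, with 34270, 31340 and 30719 RPMMM in FA, 36791, 36228 and 36693 at 1 ppm, and 19524, 20526 and 22519 at 2 ppm. The groups did not overlap, with 1 ppm highest and 2 ppm lowest. Each copy of miR-30c-5p had 12387, 10670 and 8728 RPMMM in FA, 8311, 7890 and 10915 at 1 ppm, and 3433, 3427 and 4174 at 2 ppm. The FA and 1 ppm pools of miR-30c-5p overlapped and those of 2 ppm lay apart below them.

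miR-30b-5p had 9388, 10832 and 8214 RPMMM in FA, 7611, 7913 and 9518 at 1 ppm, and 3277, 4096 and 4847 at 2 ppm. miR-30e-5p had 7857, 6910 and 7111 RPMMM in FA, 6825, 6662 and 7350 at 1 ppm, and 3650, 4295 and 3569 at 2 ppm. For both, FA and 1 ppm overlapped and all 2 ppm pools were lower.

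The order miR-30d-5p, miR-30a-5p, miR-30c-5p held in 9 of 9 pools. Below it the neighbours were not separated everywhere. A copy of miR-30c-5p exceeded miR-30b-5p in 5 of 9 pools, and within the exposures the difference was within the spread between pools (exact permutation tests, two-sided, p = 0.5, 0.6 and 0.7). The tests in this paragraph took the values as unpaired, although the miRNAs compared were read in the same pools. With both copies of miR-30c-5p counted, it exceeded miR-30b-5p in 9 of 9 pools, with p = 0.1 in each exposure (two-sided exact permutation tests). miR-30b-5p exceeded miR-30e-5p in all 6 FA and 1 ppm pools, and in 1 of 3 pools at 2 ppm (exact permutation test, two-sided, p = 0.7). mir-384-5p, which has the family's seed and is no member, was listed at 33.6 RPMMM in 1 FA pool and at 0 in the other pools.

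Among the 3p arms, miR-30a-3p led with 6919, 6445 and 6480 RPMMM in FA, 8567, 7153 and 5643 at 1 ppm, and 3232, 3111 and 3912 at 2 ppm. miR-30e-3p, which shares its seed, had 3136, 3046 and 2875 RPMMM in FA, 3399, 2724 and 2486 at 1 ppm, and 1168, 1135 and 1682 at 2 ppm. In both, the 1 ppm pools spanned the FA pools and the 2 ppm pools were lower than all others.

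miR-30c-2-3p was an order of magnitude lower, with 753, 706 and 342 RPMMM in FA, 265, 458 and 269 at 1 ppm, and 184, 373 and 423 at 2 ppm, and its 3 groups overlapped. miR-30d-3p, the partner of the most abundant 5p arm, had 249, 294 and 291 RPMMM in FA, 96.5, 102 and 65.6 at 1 ppm, and 113, 55.3 and 49.7 at 2 ppm. All 6 O3 pools of miR-30d-3p lay below all FA pools, and 1 ppm and 2 ppm overlapped. These values stood for an estimated 14 to 227.5 reads per pool, so that counting error is a larger part of them than for the 5p arms.

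miR-30b-3p was near the lowest listed values, with 77.8, 80.2 and 59.8 RPMMM in FA, 63.2 RPMMM in 1 pool at 1 ppm and 0 in the other two, and 53.2, 44.9 and 39.1 at 2 ppm. miR-30c-1-3p was listed above 0 in 1 pool of each exposure, at 29.1 RPMMM in FA, 20.8 at 1 ppm and 42.6 at 2 ppm. The order miR-30a-3p, miR-30e-3p, miR-30c-2-3p, miR-30d-3p, miR-30b-3p held in 9 of 9 pools, so that the order of the hairpins by their 3p arm was not that by their 5p arm.

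**Figure D1:**
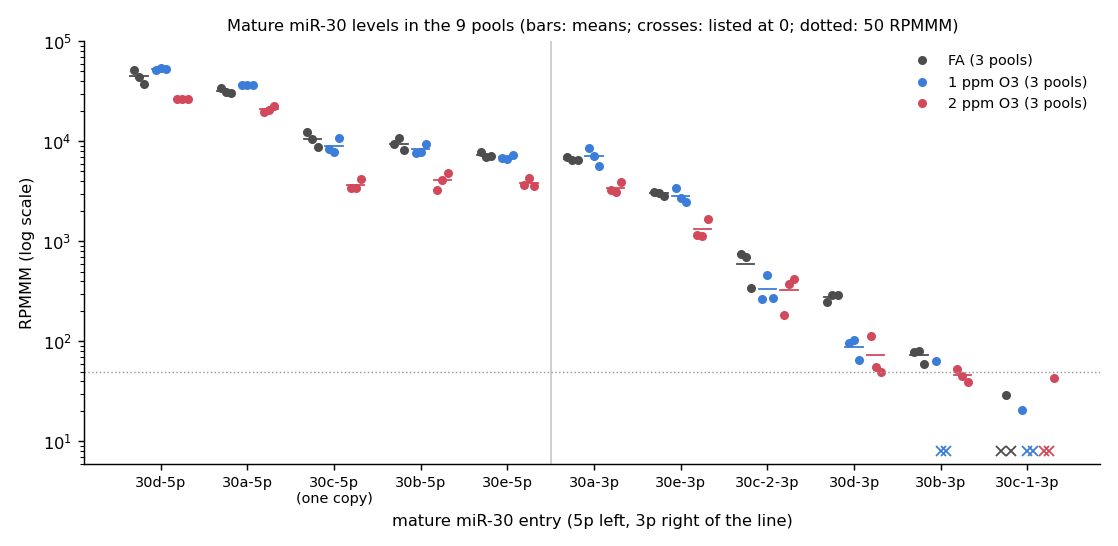
Levels of the mature miR-30 entries in RPMMM on a log axis, with a point for each of 3 pools per exposure, bars for group means where all 3 pools were above 0, crosses for pools listed at 0 and a dotted line at 50 RPMMM. miR-30d-5p led in every pool, with 26322 to 53636 RPMMM, and the 2 ppm pools of all 5p arms lay below the FA and 1 ppm pools.

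Summed over all entries, both miR-30c copies included, the family made up 15.0%, 13.4% and 11.9% of the listed total in the FA pools. It made up 14.1%, 13.9% and 14.7% at 1 ppm, and 6.90%, 7.13% and 7.77% at 2 ppm. With miR-30c copies of identical values counted once, as in the rest of this paragraph, it made up 13.7%, 12.3% and 11.0% in FA. These sums were 13.2%, 13.1% and 13.5% at 1 ppm, and 6.53%, 6.75% and 7.32% at 2 ppm. The 1 ppm sum was 1.08 times that in FA and overlapped with it (exact permutation test, two-sided, p = 0.4). The 2 ppm sum was 0.558 times that in FA with no overlap (two-sided p = 0.1 by an exact permutation test, which cannot go lower with 3 pools a side), a direction that turned when miR-2137 and the other 4 hairpins named above were left out of the total. On that scale the family held 13.8%, 12.3% and 11.1% of the remaining reads in FA, 14.3%, 14.7% and 14.3% at 1 ppm, and 12.4%, 12.7% and 12.5% at 2 ppm, and the 2 ppm and FA pools overlapped (exact permutation test, two-sided, p = 0.7). On this second scale the 1 ppm pools were the highest, with a ratio to FA of 1.17 (exact permutation test, two-sided, p = 0.1).

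Single entries were tested with limma on log2(RPMMM + 1) over the 461 entries of the whole table with a mean above 50 RPMMM, and an entry was called at an adjusted p below 0.05 and at least a 2-fold change. Of the 67 members, 28 passed the filter on low values, among them all 6 mature 5p entries and 4 of 6 mature 3p entries. The entries of mir-30b-3p and mir-30c-1-3p were not tested. Since the filter takes the mean of all pools, members that stayed out were low ones, and counts below concern the 28 alone.

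At 1 ppm against FA, 1 of the 28 tested members was called, against 13.2 percent of all 461 entries called in either direction and 2.82 percent called lower. At any fold, 2 of the 28 passed the adjusted p and 1 of them was lower, against 17.1 percent and 6.07 percent of all entries. This was miR-30d-3p, which fell with a log2 fold change of -1.67 ± 0.44 (SE) and an adjusted p of 0.0296 (limma). The median log2 fold change was -0.10 over the 28 members and -0.08 over all tested entries. The call on miR-30d-3p was lost without any 1 of the 3 FA pools and without 1 ppm pool 1 or 3, with adjusted p from limma between 0.0573 and 0.0974 and a log2 fold change between -1.75 and -1.47, and the count was then 0. Over all 19 alternatives its adjusted p ran from 0.0103 to 0.0974. Both miR-30a-5p (log2 fold change 0.19, limma adjusted p = 0.177) and miR-30d-5p (0.25, adjusted p = 0.181) missed the threshold. With scaling by the median of ratios, limma gave 0.27 (adjusted p = 0.0175) for miR-30a-5p and 0.33 (adjusted p = 0.0909) for miR-30d-5p. With miR-2137 and the other 4 hairpins left out of the total, they had 0.30 (adjusted p = 0.0166) and 0.36 (adjusted p = 0.0690). All were short of 2-fold and none was called.

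An isomiR of the same hairpin went the other way. miR-30d-5p shifted by +2 had 235, 356 and 347 RPMMM in FA, 520, 553 and 516 at 1 ppm, and 309, 311 and 247 at 2 ppm. On this deposited scale the 1 ppm pools stood above all others. With miR-2137 and the other 4 hairpins left out of the total, its log2 fold change at 2 ppm was 0.76 against FA (limma adjusted p = 0.0374). Against 1 ppm it was -0.13 there (limma adjusted p = 0.687). Its mean share of the arm was 0.69% in FA, 0.96% at 1 ppm and 1.04% at 2 ppm. On the deposited scale its log2 fold change at 1 ppm against FA was 0.78 ± 0.24 (SE, limma adjusted p = 0.0490), short of 2-fold. Of the 28 tested members, 4 had 1 ppm and FA pools that did not overlap, against 33.2 percent of all tested entries.

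At 2 ppm against FA, 15 of the 28 tested members were called and all 15 were lower, against 43.6 percent of all tested entries called and 29.3 percent called lower. With entries of identical values counted once, 12 of 25 members were called, all lower, against 43.0 percent of 446 entries called and 28.7 percent called lower. The fall of these 15 shrank to 2 calls with scaling by the median of ratios, to 6 with miR-2137 left out of the total, and to 1 with the other 4 hairpins left out as well. The median log2 fold change was -1.14 over the members and -0.83 over all tested entries, and 20 of the 28 members lay below the median of all. Without miR-2137 and the other 4 hairpins the median was -0.28 over the members tested and 0.05 over all entries, by the median of ratios -0.42 and -0.08, and without miR-2137 alone -0.81 and -0.51. The calls left were miR-30d-3p and miR-30e-3p shifted by -1 by the median of ratios, and the latter alone without the 5 hairpins. That form was listed at 0 in 2 ppm pools 1 and 2 and at 42.6 RPMMM in pool 3. Its call thus rests on values at the listing limit and on the pseudocount. At any fold, 21 of the 28 passed the adjusted p, all lower, against 53.4 percent of all entries and 38.0 percent lower. The 2 ppm and FA pools did not overlap for 20 members, against 66.4 percent of all tested entries.

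The estimates for the mature 5p arms ran from -0.62 to -1.52. miR-30c-5p had the lowest and fell with a log2 fold change of -1.52 ± 0.17 (SE, limma adjusted p = 4.48e-05), followed by miR-30b-5p with -1.23 ± 0.16 (adjusted p = 0.000197). miR-30e-5p (-0.93 ± 0.11, adjusted p = 5.64e-05), miR-30d-5p (-0.74 ± 0.11, adjusted p = 0.000367) and miR-30a-5p (-0.62 ± 0.08, adjusted p = 0.000174) passed the adjusted p and missed the 2-fold threshold. miR-30c-5p kept an adjusted p below 0.05 by limma on the other scales, with -0.82 by the median of ratios (adjusted p = 0.00199) and -0.66 without the 5 hairpins (adjusted p = 0.00744). It was short of 2-fold on both and was called on neither. miR-30b-5p, at -0.53 (adjusted p = 0.0187) and -0.37 (adjusted p = 0.0720), and miR-30e-5p, at -0.23 (adjusted p = 0.150) and -0.07 (adjusted p = 0.672), were likewise called on neither scale. miR-30a-5p turned to 0.07 (adjusted p = 0.390) and 0.24 (adjusted p = 0.0272) on the same scales. miR-30d-5p was at -0.04 and turned to 0.12 (adjusted p = 0.453) on the second of them.

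Of the mature 3p arms, miR-30d-3p fell with a log2 fold change of -2.02 ± 0.44 (SE, limma adjusted p = 0.00362) and miR-30e-3p with -1.21 ± 0.18 (adjusted p = 0.000355). miR-30a-3p had -0.96 ± 0.16 (adjusted p = 0.000645), just under 2-fold, and miR-30c-2-3p -0.88 ± 0.42 (adjusted p = 0.101). On the scale without the 5 hairpins all 4 were below 0 with adjusted p between 0.0795 and 0.987, so that none was called there. By the median of ratios miR-30d-3p was called with -1.32 (limma adjusted p = 0.0487), whereas miR-30e-3p had -0.51 (adjusted p = 0.0251) and was short of 2-fold.

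**Figure D2:**
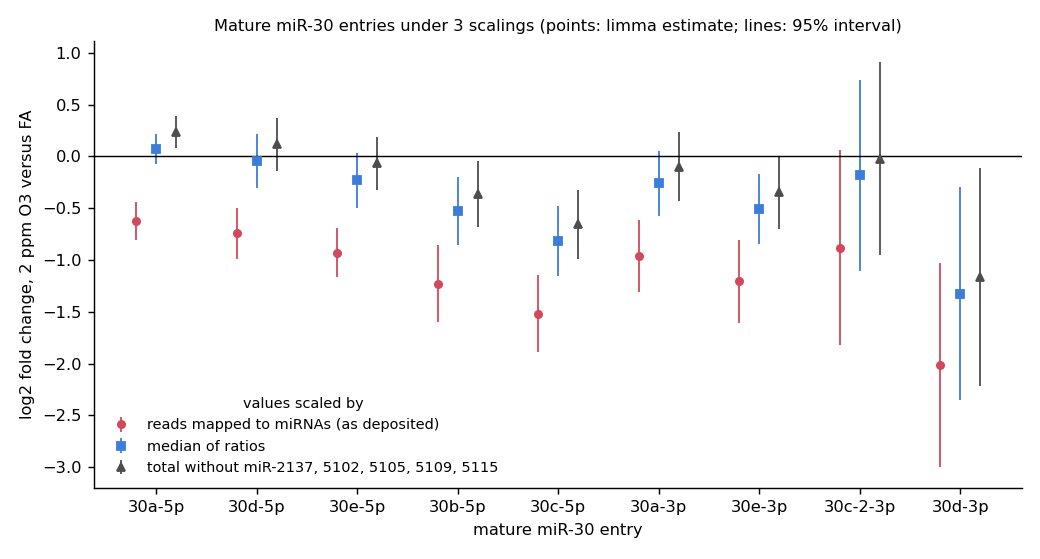
Log2 fold change of the mature miR-30 entries at 2 ppm against FA (limma estimate with 95% interval) for values scaled by all miRNA reads, by the median of ratios and by a total without miR-2137 and 4 other hairpins. miR-30c-5p lay at -1.52, -0.82 and -0.66 on the 3 scales, while miR-30a-5p went from -0.62 to 0.07 and 0.24 and miR-30d-5p from -0.74 to -0.04 and 0.12.

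At 2 ppm against 1 ppm, 13 of the 28 tested members were called, all lower, against 33.6 percent of all tested entries called and 22.3 percent called lower. With entries of identical values counted once, the count was 11 of 25 members, all lower, against 33.2 percent of 446 entries called and 22.2 percent called lower. The count of 13 was 6 with miR-2137 left out of the total and 0 on the other 2 scales. It was 8 without 1 ppm pool 3 and 8 without 2 ppm pool 1. At any fold, 18 passed the adjusted p, all lower, against 44.5 percent of all entries and 32.1 percent lower, and pools did not overlap for 21 members, against 56.8 percent of all. The median log2 fold change was -1.03 over the members and -0.69 over all tested entries. miR-30c-5p fell, with the lowest estimate of the mature 5p arms (-1.29 ± 0.17, SE, limma adjusted p = 0.000282), whereas miR-30d-3p (-0.35, adjusted p = 0.520) and miR-30c-2-3p (-0.06, adjusted p = 0.913) missed the threshold. The 3 comparisons share their pools and are no separate evidence of each other.

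**Figure D3:**
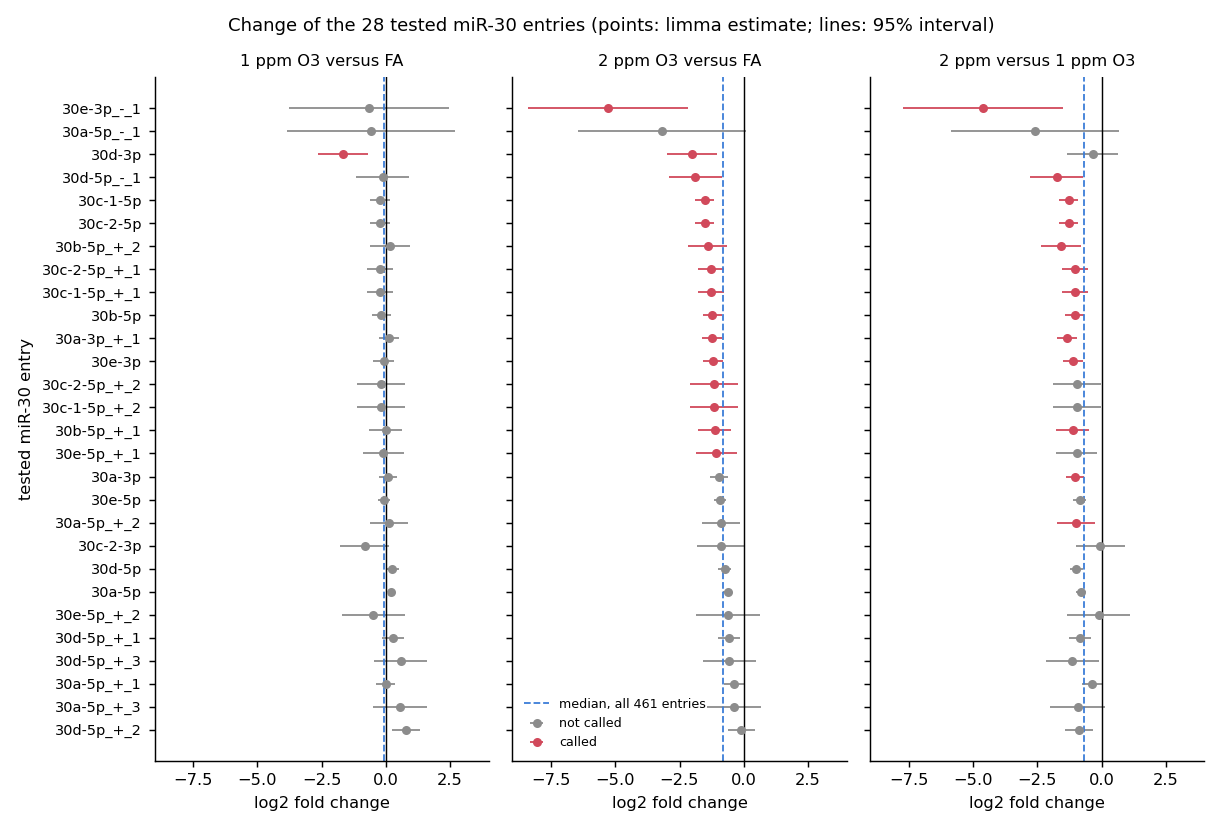
Log2 fold changes of the 28 tested miR-30 entries in the 3 comparisons (points, limma estimates on RPMMM as deposited; lines, 95% intervals; red, called), with the median of all 461 tested entries dashed. At 1 ppm only miR-30d-3p was called, and at 2 ppm all 28 estimates were below 0, with a median of -1.14 against -0.83 for all entries; among the mature entries, miR-30a-5p and miR-30d-5p turned above 0 on other scales, as did some shifted ones.

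The make-up of the family within a pool does not depend on the total to which the pool was scaled. Of the summed 5p reads, miR-30c-5p made up 10.8%, 10.5% and 9.49% in FA, 7.54%, 7.11% and 9.47% at 1 ppm, and 6.13%, 6.06% and 6.73% at 2 ppm. The 3 exposures did not overlap and lay in the order of the O3 concentration (exact permutation test of each pair, two-sided, p = 0.1). With both copies of miR-30c-5p counted, its share was 17.3% to 19.3% in FA, 13.3% to 17.2% at 1 ppm and 11.4% to 12.6% at 2 ppm, in the same order.

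The share of miR-30a-5p was 29.8%, 30.4% and 33.5% in FA, 33.4%, 32.3% and 31.3% at 1 ppm, and 34.9%, 35.4% and 37.1% at 2 ppm, so that 2 ppm stood above the other exposures. The share of miR-30d-5p was 43.9%, 41.7% and 40.1% in FA, 45.7%, 47.1% and 44.3% at 1 ppm, and 46.5%, 44.2% and 42.1% at 2 ppm, with 1 ppm above FA and 2 ppm overlapping both. The share of miR-30b-5p was 5.90% to 7.87% at 2 ppm, below the 8.28% to 10.6% of all FA pools, and overlapped with that at 1 ppm. The share of miR-30e-5p was 6.20% to 6.37% at 1 ppm, below the 6.73% to 7.87% of all FA pools, and its 2 ppm pools overlapped with both. With 3 pools a group, no p below 0.1 was possible for any of these shares.

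Ratios between mature members do not depend on the total either. The ratio of miR-30d-5p to a single copy of miR-30c-5p was 4.23, 4.15 and 4.33 in FA, 6.19, 6.80 and 4.86 at 1 ppm, and 7.80, 7.68 and 6.36 at 2 ppm, with both O3 groups above FA. The ratio of miR-30a-3p to miR-30e-3p, which share a seed, was 2.21, 2.12 and 2.25 in FA, 2.52, 2.63 and 2.27 at 1 ppm, and 2.77, 2.74 and 2.33 at 2 ppm, also with both O3 groups above FA. Over the 15 ratio tests made, no exact permutation p was below 0.1 and no adjusted p was below 0.214.

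**Figure D4:**
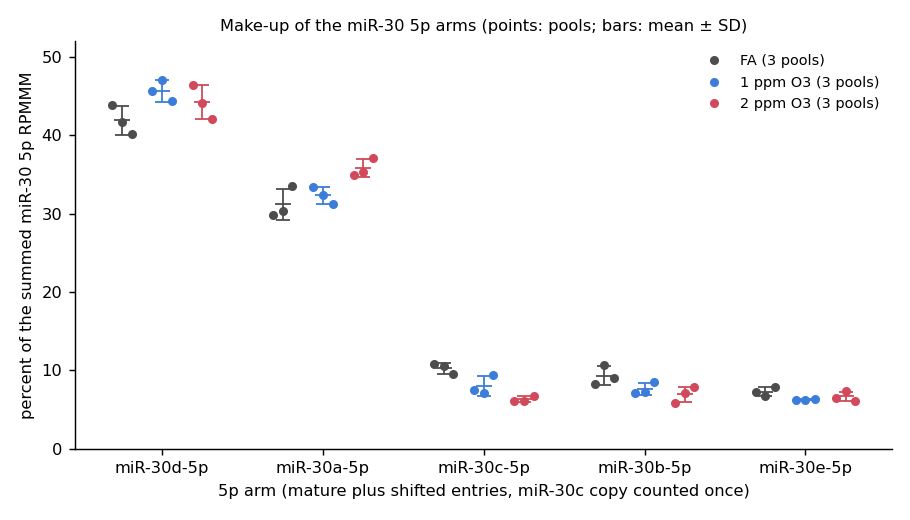
Share of each miR-30 member in the summed 5p reads of the family, in percent, with miR-30c copies of identical values counted once, a point per pool and mean ± SD of 3 pools per exposure. The share of miR-30c-5p was 9.49% to 10.8% in FA and 6.06% to 6.73% at 2 ppm, and that of miR-30a-5p was 29.8% to 33.5% in FA and 34.9% to 37.1% at 2 ppm.

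The arms of each hairpin were compared by the log2 ratio of 5p to 3p reads, each arm summed over its mature entry and its isomiRs, with 1 RPMMM added. All 5 testable miR-30 hairpins had more 5p than 3p reads in all 9 pools, which held for 33 of the 67 hairpins with both arms above 50 RPMMM on average. The bias differed widely between them. The mean log2 ratio was 8.44 for mir-30d, rank 3 of the 67 hairpins, 7.67 for mir-30b, 4.25 for mir-30c-2, 2.32 for mir-30a and 1.42 for mir-30e, against a median of 1.57 over the 67. The mean of mir-30b includes a pool whose 3p arm was listed at 0, and was 6.95 over the other 8 pools. In linear terms, mir-30e gave 2.05 to 3.88 5p reads per 3p read, mir-30a 4.02 to 6.15, and mir-30d 136 to 835.

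For mir-30d, the log2 ratio was 7.65, 7.29 and 7.08 in FA, 9.11, 9.09 and 9.71 at 1 ppm, and 7.94, 8.93 and 9.11 at 2 ppm. All O3 pools were above all FA pools. In a limma fit over the 67 hairpins the ratio changed by 1.96 at 1 ppm (95% interval 0.66 to 3.25, adjusted p = 0.0825) and by 1.32 at 2 ppm (0.02 to 2.61, adjusted p = 0.188), and neither was called. The change at 1 ppm was called without a variance trend (adjusted p = 0.0487) and in a limma fit on FA and 1 ppm alone (adjusted p = 0.0349). The 3p arm of mir-30d is the one with few reads, as given above.

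For mir-30a, the log2 ratio was 2.18, 2.19 and 2.13 in FA, 2.01, 2.21 and 2.53 at 1 ppm, and 2.54, 2.62 and 2.49 at 2 ppm. The 2 ppm pools were all above FA by a small step of 0.38 (95% interval 0.01 to 0.75, limma adjusted p = 0.188). For mir-30e it was 1.43, 1.19 and 1.32 in FA, 1.04, 1.36 and 1.60 at 1 ppm, and 1.69, 1.96 and 1.20 at 2 ppm, with all groups overlapping. Its change was 0.02 at 1 ppm (95% interval -0.47 to 0.51) and 0.30 at 2 ppm (-0.19 to 0.79).

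For mir-30c-2, the log2 ratio was 4.02, 4.04 and 4.67 in FA, 5.06, 4.21 and 5.31 at 1 ppm, and 4.32, 3.34 and 3.26 at 2 ppm, and here the 5p reads are those of both copies shared out. The change from 1 ppm to 2 ppm was -1.22 (95% interval -2.06 to -0.38, limma adjusted p = 0.0690). That difference was called without 1 ppm pool 2 (-1.55, limma adjusted p = 0.0243) and without 2 ppm pool 1 (-1.56, limma adjusted p = 0.0373). For mir-30b, 1 pool at 1 ppm had no listed 3p read, and the log2 ratio ran from 6.04 to 7.94 in the other 8 pools.

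None of the 5 miR-30 hairpins was thus called by limma in any comparison, against 4.48 percent of all 67 hairpins at 1 ppm, 5.97 percent at 2 ppm and 2.99 percent between the O3 groups. At an unadjusted p below 0.05, 1, 2 and 1 of the 5 passed. Pools did not overlap for 1 hairpin at 1 ppm (22.4 percent of all), 2 at 2 ppm (31.3 percent) and 1 between the O3 groups (25.4 percent). The 3p share of the whole family was 9.25%, 9.59% and 10.4% in FA, 10.5%, 8.99% and 7.24% at 1 ppm, and 7.93%, 7.75% and 9.25% at 2 ppm, and the groups overlapped (exact permutation tests, two-sided, p = 0.5 at 1 ppm and 0.2 at 2 ppm against FA).

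**Figure D5:**
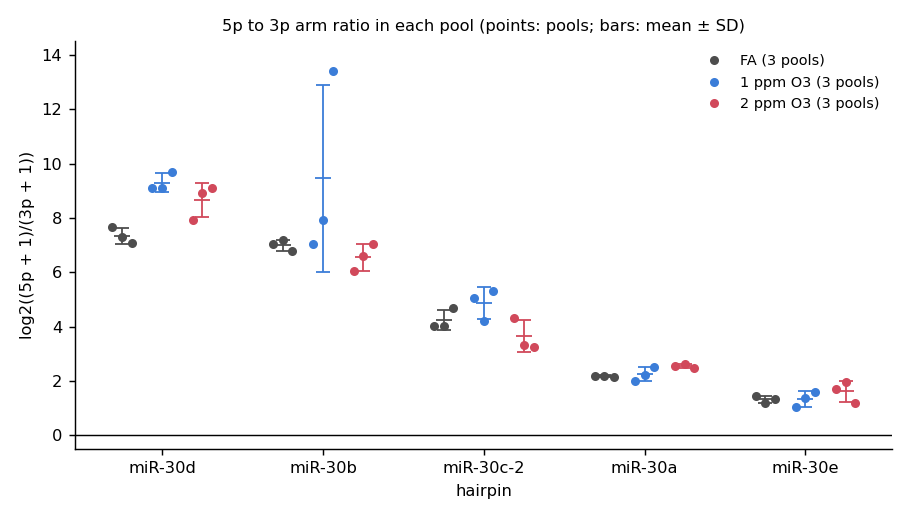
Log2 ratio of 5p to 3p reads, with 1 RPMMM added to each arm, in each of 9 pools for the 5 miR-30 hairpins with both arms tested (points, pools; bars, mean ± SD of 3 pools). All ratios were above 0, from a mean of 1.42 for mir-30e to 8.44 for mir-30d, and the mir-30d ratio was 7.08 to 7.65 in FA, 9.09 to 9.71 at 1 ppm and 7.94 to 9.11 at 2 ppm; the high point of mir-30b has a 3p arm listed at 0.

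IsomiR names carry a suffix that was read as the number of bases by which the 5′ end lies downstream (plus) or upstream (minus) of the mature start, as miRquant names them. Such a shift moves the seed. The forms of mir-30a below are the mature 5p and 3p starts moved by 1 base, cut to 14 bases, with bases 2 to 8 in capitals.
miR-30a-5p shifted by +1: gUAAACAUccucga
miR-30a-5p shifted by -1: cUGUAAACauccuc
miR-30a-3p shifted by +1: uUUCAGUCggaugu
None of these starts keeps the seed of the mature form in place.

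Over all pools, shifted entries held 4.43% of the reads of miR-30d-5p, 6.97% of miR-30a-5p, 7.49% of miR-30c-5p, 8.69% of miR-30b-5p and 9.03% of miR-30e-5p. Among 75 arms of other miRNAs above 1000 RPMMM the median was 4.88%, with a range of 1.25% to 62.3%. The highest share in the family was that of miR-30a-3p at 13.7%, against 5.86% for miR-30e-3p, which differs from it in 1 base.

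The shift by +1 was the leading shifted form of all 5p arms, with a mean over the pools of 4.84% of miR-30a-5p, 4.59% of miR-30b-5p, 4.22% of miR-30c-5p, 2.76% of miR-30d-5p and 5.77% of miR-30e-5p. It held 12.4% of miR-30a-3p. miR-30a-3p shifted by +1 was itself well measured, with 1175, 832 and 985 RPMMM in FA, 1134, 1046 and 1059 at 1 ppm, and 377, 416 and 479 at 2 ppm. It fell at 2 ppm with a log2 fold change of -1.22 ± 0.18 (SE, limma adjusted p = 0.000313), beside -0.96 for its mature form. It was called on neither other scale, with -0.53 by the median of ratios (limma adjusted p = 0.0302) and -0.36 without the 5 hairpins (adjusted p = 0.117).

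In miR-30e-3p the leading shifted form was not the same in every exposure. Its start shifted by -1 held on average 4.28% of the arm in FA, 2.87% at 1 ppm and 0.796% at 2 ppm, and that by +1 held 1.28%, 1.77% and 3.75%. The -1 form had 131, 114 and 168 RPMMM in FA, 115, 91.9 and 59.2 at 1 ppm, and 42.6 RPMMM in 1 pool at 2 ppm, where the other two pools listed it at 0. It was called at 2 ppm (limma adjusted p = 0.0100), but about 10 reads stand for 34.3 to 37.3 RPMMM in the 2 ppm pools, and no fold is given against values at 0. miR-30d-5p shifted by -1 was above 0 in all 9 pools, with 259, 151 and 248 RPMMM in FA, 346, 128 and 168 at 1 ppm, and 59.8, 58.7 and 53.3 at 2 ppm, and fell at 2 ppm with a log2 fold change of -1.88 ± 0.45 (SE, limma adjusted p = 0.00638). Its 2 ppm pools lay together and below all others. On the other scales it was not called, with -1.19 by the median of ratios (limma adjusted p = 0.0617) and -1.03 without the 5 hairpins (adjusted p = 0.113).

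The share of shifted reads over all 5p arms was 6.20%, 6.26% and 6.25% in FA, 6.17%, 5.70% and 6.28% at 1 ppm, and 5.81%, 5.80% and 7.20% at 2 ppm. FA and 2 ppm differed by 0.03 percentage points with overlapping pools (exact permutation test, two-sided, p = 1), a difference that turned to -0.44 without 2 ppm pool 3 (exact permutation test, p = 0.1). Over the 9 arms tested singly, no share differed from FA with an adjusted p below 0.45 at 1 ppm or 0.6 at 2 ppm (exact permutation tests). Most rare forms were found in few pools, and 26 of the 67 entries were above 0 in all 9 pools and 9 in a single pool. In the 2 ppm pools, the least deep, 802 to 839 of the 1308 entries were listed at 0, against 511 to 561 in FA.

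The patterns most like that of the summed 5p arms were sought among 204 other mature entries by the root mean square difference of centred log2 values over the 9 pools. They were miR-99b-5p (0.0743), miR-21-5p (0.103), miR-182-5p (0.122), miR-26a-1-5p (0.127) and miR-23b-3p (0.131), against a median of 0.650. Their log2 fold changes at 2 ppm lay between -1.06 and -0.70 and at 1 ppm between -0.01 and 0.17. This is a description over 9 pools that share 1 scaling.

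miRNAs best known from epithelium, 26 mature entries from a list of 16 hairpins, had a summed level of 83000 to 89927 RPMMM in FA, 63207 to 68427 at 1 ppm and 42334 to 44857 at 2 ppm, led by miR-200b-3p and miR-200c-3p. Of the 20 that were tested, 3 were called lower at 1 ppm and 7 at 2 ppm on the deposited scale, against 2.82 percent and 29.3 percent of all tested entries, and none was called higher against FA. Their median log2 fold change was -0.43 at 1 ppm and -0.94 at 2 ppm, against -0.08 and -0.83 over all entries. Without the 5 hairpins in the total, 2 were called lower at 1 ppm, and at 2 ppm 1 was lower and 1 higher, with a median of -0.08 at 2 ppm. Those of leukocytes, 8 mature entries led by miR-342-3p and miR-223-3p, summed to 2093 to 2614 RPMMM in FA, 1765 to 2826 at 1 ppm and 1272 to 1469 at 2 ppm. Of the 5 that were tested, 3 were called lower at 2 ppm (median log2 fold change -1.06), against 29.3 percent of all tested entries. miR-223-3p was not among them, with -0.08 (limma adjusted p = 0.793). By the median of ratios, 1 of 5 tested was called lower at 2 ppm, with a median of -0.36. Without the 5 hairpins in the total, 6 rather than 5 entries passed the filter and 1 was called lower at 2 ppm. The median of 0.29 there is over this larger set and cannot be set against that over 5. Those of erythroid cells, miR-451 and miR-486-5p among them, summed to 801 to 1757 RPMMM in FA, 150 to 311 at 1 ppm and 158 to 948 at 2 ppm, with 1 of 2 tested entries called lower at 1 ppm (median log2 fold change -2.23, and -2.11 without the 5 hairpins). On the deposited scale the epithelial sum was below FA in all O3 pools, and its part in the miR-30 values was not tested.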

How the data were processed

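Small RNA of BALF EVs was read in 9 pools. With miRquant 2.0, the authors removed adapters, mapped reads to mm9 and counted miRNAs with their isomiRs. The deposited values are RPMMM, an RPM over miRNA reads alone, so that each column sums to 1000000. The depth was estimated from the steps between low values, 75.4% to 91.7% of which lay on whole reads for entries with 1 genomic copy, so that no count test was used. The test behind the study's thresholds was not given in the sources used here.

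Here, limma 3.58.1 (R 4.3.3) was applied to log2(RPMMM + 1) in 1 model with a mean per exposure and a variance trend, over 461 entries with a mean above 50 RPMMM, with Benjamini-Hochberg adjustment over all of them. The estimated change of an entry listed at 0 in some pools depends on the pseudocount. Arm ratios were fitted likewise over 67 hairpins. Values given once per pool were compared by two-sided exact permutation tests. On simulated data for 2 ppm against FA, with 200 of 461 entries changed 4-fold, 129 were called rightly and 5 unchanged ones were called. For arm ratios, 40 of 67 hairpins were changed, of which 28 were called, and 0 of the unchanged ones were called. The simulation drew normal values with changes in random directions. It had no shift of the total and no listing limit, so that its rates do not carry over to the calls at 2 ppm. Named besides the members are the 5 entries most alike, neighbours in rank, mir-384 and the 2 highest of each cell type list. Members, lists and tests were chosen with earlier results of these data known. Positions are from GENCODE vM1 (mm9). Other scalings, filters and pool sets were tried as alternatives.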

Additional observations from a re-analysis of the deposited data

How the results depend on the processing

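Counts of called members at 2 ppm were lowest on other scales. Against FA, 15 calls became 2 with the median of ratios, 6 without miR-2137 in the total, 1 without miR-2137, miR-5102, miR-5105, miR-5109 as well as miR-5115, and 4 with mature entries alone, where 9 were tested. At 2 ppm against 1 ppm, 13 became 0, 6, 0 and 4 in the same order. At 1 ppm against FA, 1 call (miR-30d-3p) became 0 with no filter, where its log2 change was -1.67, without the 5 hairpins, where it was -1.56, and with a mean above 200 RPMMM, where it was not tested. Without the 5 hairpins the log2 change of the family sum at 2 ppm turned from -0.84 to 0.017 and that of miR-30d-5p to 0.12; miR-30a-5p turned to 0.24 there and to 0.075 with the median of ratios. For arm ratios, 0 calls became 1 at 1 ppm without a variance trend and on 2 groups alone (mir-30d), and 1 between the O3 groups with each arm above 200 RPMMM and with mature entries alone (mir-30c-2). The cause was not tested beyond what the scales themselves fix.

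Leaving out 1 pool gave 0 to 1 calls at 1 ppm, 11 to 16 at 2 ppm and 8 to 14 between the O3 groups, and for arm ratios 0 to 0, 0 to 0 and 0 to 1. The log2 change of the family sum ran from 0.03 to 0.19 at 1 ppm and from -0.92 to -0.76 at 2 ppm. The difference in 5p isomiR share ran from -0.44 to 0.27 percentage points and turned without 2 ppm pool 3. For single members and hairpins, 178 alternatives concerned values called as reported, of which 32 lost the call and 16 moved by over 1.5-fold, and 202 concerned values not called, of which 12 gained a call, 3 turned and 14 moved by over 1.5-fold. Counting both miR-30c copies, an alternative chosen after seeing the data, gave -0.89 for the family sum at 2 ppm. No paired analysis of exposures was made, because the labels link no pool of an exposure to a pool of another exposure. Levels of different miRNAs in the same pools were also tested as unpaired. Values near the listing limit of about 10 reads, 11.8 to 37.3 RPMMM by pool, are limited by depth.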
